A study of Rattus norvegicus with 31 samples.

Results

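The genes described here code for the subunits of voltage-gated sodium channels, together with Sclt1, whose product links such a channel to clathrin. They were taken as all probe sets whose only gene symbol in the chip annotation was Scn followed by a number and a or b, or was Sclt1. This gave 11 probe sets of the 12913 tested, for 10 genes: the pore-forming alpha subunits Scn2a, Scn4a, Scn8a, Scn9a, Scn10a and Scn11a, the auxiliary beta subunits Scn2b, Scn3b and Scn4b, and Sclt1. Scn3b had 2 probe sets and each other gene had 1. A further 713 probe sets had no symbol and 320 had several, and these are unnamed here.

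The tissue was motor neurons of the tail from adult male Wistar rats, traced with Fluoro-Gold, cut by laser from the sacral cord below the lesion and amplified in 2 rounds before hybridization to an Affymetrix rat chip with 1 array per animal. The injured rats had the sacral cord completely transected and were taken 2 days (Spi-2, n = 6), 7 days (Spi-7, n = 5), 21 days (Spi-21, n = 8) or 60 days (Spi-60, n = 8) later, and the reference was uninjured rats (Control, n = 4), which had no sham operation. All 31 animals carried the tracer. The 15 arrays of Control and the early days were made for one study and the 16 of the late days for an earlier one, so that a difference between the late days and any of the other groups cannot be told apart from a difference between the studies.

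A voltage-gated sodium channel opens when the membrane depolarizes, lets sodium into the cell and produces the rising phase of the action potential. The alpha subunit forms the pore and the voltage sensors, and beta subunits, which are also cell adhesion molecules, set how fast the channel gates and how much of it reaches the surface. In motor neurons the channels are crowded at the axon initial segment and the nodes of Ranvier. The fraction of their current that does not inactivate contributes to the plateau potentials and repetitive firing for which these cells are known.

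Values are the deposited log2 expression summaries, and a log2 fold change is the difference of 2 group means of these. The median array value was 5.95 to 6.10. The interquartile range was 1.74 to 1.89 for Spi-21, 1.81 to 1.93 for Spi-60 and 1.75 for Spi-7 replicate 5, against 1.95 to 2.03 for Control. The difference between the 3' and 5' Gapdh control sets, a measure of how far the amplified RNA was shortened, was 1.80 to 2.50 for Control, 2.30 to 3.38 for Spi-2, 2.38 to 3.33 for Spi-7, 1.13 to 3.54 for Spi-21 and 2.99 to 3.97 for Spi-60. Within Spi-21 it was 2.76 to 3.54 for replicates 1 to 4 and 1.13 to 1.66 for replicates 5 to 8. The settings below that leave out Spi-21 replicates 1 to 3 keep replicate 4. The Control and Spi-60 ranges did not overlap, so that a model with the Gapdh difference as a covariate also takes up change between these groups. Of 11 motor neuron markers 9 were measured, and their mean was 10.74 to 11.52 on every array. Single markers among them moved in opposite directions. Slc5a7 was lower at day 2 (-1.18, adjusted p = 0.0128) and day 60 (-1.06, 0.0112). Prph was higher at days 2, 7 and 60 (0.59, 0.78 and 0.79), and no other marker was called at these days. Of 10 microglia and macrophage markers 9 were measured, and their mean was 6.31 to 7.15 for Spi-2, 5.89 to 6.88 for Spi-7, 5.50 to 7.12 for Spi-21 and 5.85 to 7.20 for Spi-60, against 5.52 to 5.78 for Control. For 5 measured interneuron markers of 6 the mean was 5.90 to 6.86 for Spi-2, 5.81 to 7.05 for Spi-7, 5.50 to 6.40 for Spi-21 and 5.75 to 6.55 for Spi-60, against 6.31 to 7.91 for Control. For 6 measured oligodendrocyte markers of 7 it was 8.10 to 8.57 for Spi-2, 7.89 to 8.89 for Spi-7, 7.81 to 8.58 for Spi-21 and 8.12 to 9.01 for Spi-60, against 8.32 to 9.15 for Control, and 1, 1, 3 and 1 of the 6 were lower at days 2, 7, 21 and 60. The mean of 6 measured astrocyte markers overlapped Control at each day. Among them Gfap was higher at day 2 (2.45, adjusted p = 0.000461) and day 60 (1.83, 0.00211). At day 2 the others changed by -0.08 (Aqp4), -0.19 (Slc1a2), -0.35 (Slc1a3), -0.43 (Gja1) and -0.52 (S100b), none of them called. The list median was then -0.27. At day 21, 1 of the 6 was called higher and 1 lower. Beyond the relations given below, the part of these cell types in the member changes was not tested. In such samples fewer cells of a type and less RNA per cell cannot be told apart.

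Over the 5 groups, 4 of the 11 probe sets passed limma's moderated F-test (FDR 0.02), against 16.2% of all probe sets tested. They were Scn9a (adjusted p = 0.00694), the Scn3b probe set 1383435_at (0.00698), Sclt1 (0.0110) and Scn10a (0.0118). Scn2a (0.0312) and the other Scn3b probe set, 1370850_at (0.0534), missed the threshold, and Scn2b, Scn4a, Scn4b, Scn8a and Scn11a lay further off. The Sclt1 call was lost when Control replicate 1, 2 or 3 was left out (adjusted p up to 0.0327), and the Scn10a call when Control replicate 2 or 3 or Spi-60 replicate 2, 5 or 6 was (up to 0.0397). Among the 15 arrays of one study (Control, Spi-2 and Spi-7) none of the 11 passed the F-test, where 3.01% of all probe sets did. An unadjusted p under 0.05 was reached by 5 of the 11. The share of all probe sets under that cutoff was not counted, so that this count cannot be read as a result about the members. Among the members that differed, Scn9a and Scn3b were highest at days 2 and 7, and Sclt1, Scn2a and Scn10a lay furthest from Control at days 21 and 60.

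**Figure D1:**
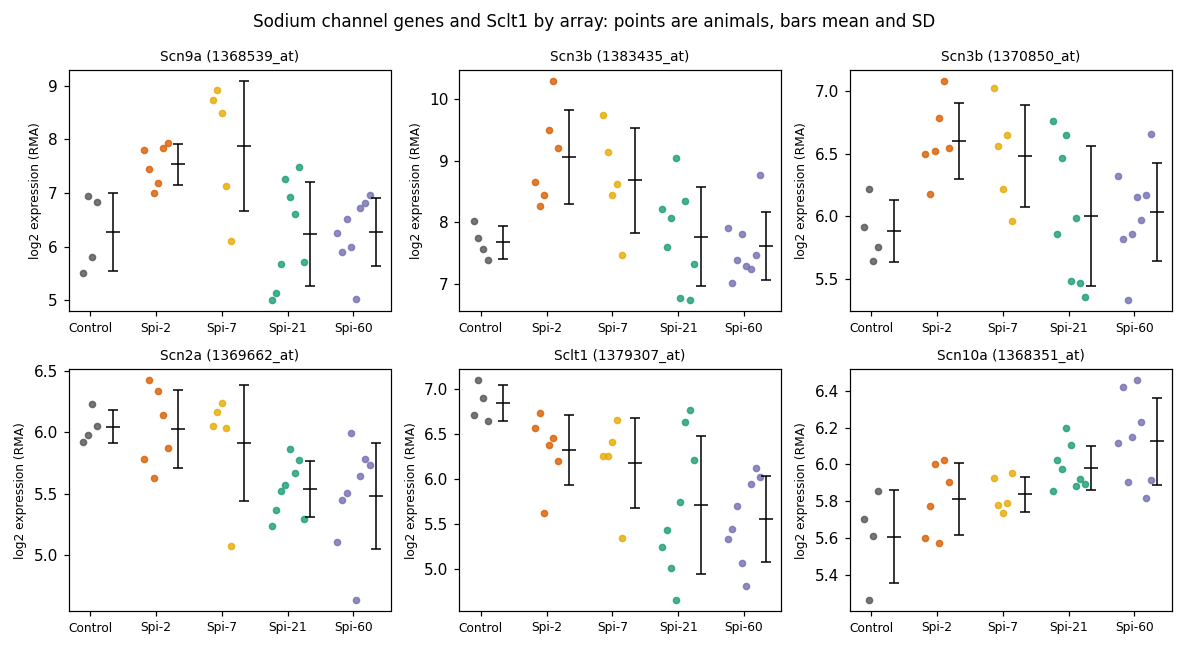
Log2 expression (y axis) of 6 probe sets on all 31 arrays by group (x axis), 1 point per animal, with the mean and SD of each group beside it. Scn9a and both Scn3b probe sets are highest in Spi-2 and Spi-7, Sclt1 and Scn2a are lowest in Spi-21 and Spi-60, and Scn10a is highest in Spi-60.

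Of the alpha subunits, Scn9a varied most over the course. Its channel opens on small, slow depolarizations and is best known from sensory and sympathetic neurons, where it governs pain thresholds. The Spi-2 arrays held 7.00 to 7.94 (median 7.62), and the Spi-7 arrays 8.73, 8.93, 8.50, 7.13 and 6.10, against 5.50, 6.95, 5.81 and 6.82 in Control. Every Spi-2 array was above every Control array (groups did not overlap for 9.39% of all probe sets at day 2 and 9.23% at day 7), and 4 of 5 Spi-7 arrays were, the exception being replicate 5. The changes were 1.26 ± 0.49 at day 2 (SE; 2.40-fold, adjusted p = 0.106) and 1.61 ± 0.51 at day 7 (3.04-fold, adjusted p = 0.0880), and neither was called. The mean of days 2 and 7, a contrast added after the data had been seen, was higher than Control by 1.44 ± 0.44 (2.71-fold, adjusted p = 0.0398), where 8.48% of all probe sets were called. That call was lost when any of 7 arrays was left out singly (Control replicates 1 and 3, Spi-2 replicates 5 and 6, Spi-7 replicates 1, 2 and 3), with changes of 1.18 to 1.40. Without Spi-7 replicate 5 the day 7 change was 2.05, with an adjusted p of 0.0155.

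By days 21 and 60 Scn9a was close to Control. Spi-21 arrays lay between 5.00 and 7.49 (median 6.16) and Spi-60 arrays between 5.02 and 6.95 (median 6.39), and both ranges overlapped Control. The changes against Control were -0.04 ± 0.47 (95% CI -0.99 to 0.91) at day 21 and 0.00 ± 0.47 (-0.95 to 0.95) at day 60, intervals that leave room for a shift of nearly 1 log2 unit either way. Against single early days the changes were -1.31 for day 21 against day 2 (adjusted p = 0.0314), -1.26 for day 60 against day 2 (0.0430), -1.65 for day 21 against day 7 (0.0308) and -1.60 for day 60 against day 7 (0.0295). In these 4 comparisons, added after the data had been seen, 14.6%, 11%, 4.29% and 4.27% of all probe sets were called. None of the 4 calls held throughout: in that order 3, 4, 2 and 1 of 11 other settings of the model ended them, and so did 6 of 14, 9 of 14, 6 of 13 and 5 of 13 arrays left out singly. Without Spi-21 replicates 1 to 3 the day 21 change was -0.73 against day 2 (adjusted p = 0.294), -1.07 against day 7 (0.253) and 0.53 against Control (0.528). The probe sets most like Scn9a over the 31 arrays were those of Rpe (r = 0.862), Tmem17 (0.846) and Eif1a (0.845).

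Scn2a, the alpha subunit of initial segments and unmyelinated axons in the central nervous system, lay lower late. Spi-21 arrays held 5.24 to 5.87 (median 5.55) and Spi-60 arrays 4.64 to 5.99 (median 5.57), against 5.92, 5.98, 6.23 and 6.05 in Control. All 8 Spi-21 arrays were below the lowest Control array (no overlap for 7.33% of all probe sets at day 21), and the Spi-60 range overlapped Control through 1 array at 5.99. The changes, -0.51 ± 0.20 at day 21 (adjusted p = 0.0783) and -0.56 ± 0.20 at day 60 (0.0503), were not called at 1 day alone, while their mean was (-0.54 ± 0.18, adjusted p = 0.0362, in a contrast added after the data had been seen that called 20.5% of all probe sets). Leaving out any single Control array or Spi-60 replicate 1 ended that call, at changes of -0.58 to -0.47. So did the Gapdh difference of each array as a covariate (-0.52, adjusted p = 0.114), leaving out Spi-21 replicates 1 to 3 (-0.49, 0.0852) and a block for replicate number (-0.53, 0.0519). At the early days the change was -0.02 ± 0.21 (day 2) and -0.13 ± 0.22 (day 7, where replicate 5 held 5.08 and the others 6.03 to 6.24).

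Scn2a and Scn9a both lie in the sodium channel gene cluster of rat chromosome 3. Their deviations from the group means went together over the 31 arrays (Pearson r = 0.613, adjusted permutation p = 0.00781; Spearman rho = 0.554, 0.0137; p adjusted over 88 relations). Leaving out the 2 arrays farthest from the median of Scn9a gave r = 0.407, so that part of the relation rests on them. Scn2a also deviated with Sclt1 (r = 0.523, adjusted permutation p = 0.0300; rho = 0.462, 0.110) and against Scn4a (r = -0.694, 0.000440; rho = -0.562, 0.0190; r = -0.551 without the 2 farthest arrays). Scn4a lay low, at 4.95 to 5.57 on every array, where array medians were 5.95 to 6.10. Spi-7 replicate 5 and Spi-60 replicate 5 held the lowest Scn2a (5.08 and 4.64) and the highest Scn4a (5.38 and 5.57) of their groups. Because Scn2a and Scn9a moved together, the 250 bases before the start of each gene are shown, from RefSeq on the GRCr8 build, which holds such sequence for 9 of the 10 genes. Neither stretch holds any of 5 motifs searched on both strands: CAGGTG (the E-box bound by Zeb1, in 15.9% of 33469 promoters of this length), TGACGTCA (the cyclic AMP response element, 1.59%), TGANTCA (AP-1, 6.34%), GGGCGG (the GC box bound by Sp1, 30.5%) and TATAAA (the TATA box, 12.9%), so that no letter is in capitals.
Scn9a, chr3:71701378-71701627, minus strand: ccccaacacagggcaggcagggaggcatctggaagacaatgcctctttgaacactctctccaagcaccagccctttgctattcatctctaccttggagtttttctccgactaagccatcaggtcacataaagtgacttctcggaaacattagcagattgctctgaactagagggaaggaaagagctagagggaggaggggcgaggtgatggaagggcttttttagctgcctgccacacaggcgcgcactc
Scn2a, chr3:70710706-70710955, plus strand: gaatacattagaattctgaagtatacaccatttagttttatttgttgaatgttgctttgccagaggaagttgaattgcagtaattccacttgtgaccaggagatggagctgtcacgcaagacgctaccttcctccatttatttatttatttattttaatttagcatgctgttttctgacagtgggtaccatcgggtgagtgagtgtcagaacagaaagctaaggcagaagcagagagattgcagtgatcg

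Scn10a was the member that lay higher late. Its channel resists tetrodotoxin and carries most of the upstroke in pain-sensing neurons. Spi-21 arrays held 5.86 to 6.20 (median 5.95) and Spi-60 arrays 5.82 to 6.46 (median 6.13), against 5.70, 5.26, 5.61 and 5.86 in Control. The Spi-21 and Control ranges met without overlapping, while the lowest Spi-60 array was below the highest Control array. The Control mean was 5.61, where array medians were 5.95 to 6.10. Whether the probe set detected its transcript at this level was not tested. The rise was 0.37 ± 0.12 at day 21 (1.30-fold, adjusted p = 0.0294) and 0.52 ± 0.12 at day 60 (1.43-fold, adjusted p = 0.00339), and it was smaller and not called at day 2 (0.20 ± 0.13) and day 7 (0.23 ± 0.13). With the Gapdh difference of each array as a covariate the day 60 change was 0.45, with an adjusted p of 0.115, and the F-test no longer called Scn10a (adjusted p = 0.0443). At day 21 the call was lost without Spi-21 replicates 1 to 3 (change 0.39, adjusted p = 0.0780), without Control replicate 2 (0.26, adjusted p = 0.180) without Control replicate 3 (0.37, adjusted p = 0.0671), and when only the Spi-21 and Control arrays were fitted (0.37, adjusted p = 0.0604). The probe sets most like Scn10a were those of Fshb (r = 0.831), Slc27a4 (0.819) and Lynx1 (0.805).

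Sclt1, which couples the Scn10a channel to clathrin and so to its removal from the membrane and is also a part of the centriole, moved the other way. The group means were 6.84 ± 0.20 for Control, 6.33 ± 0.39 for Spi-2, 6.18 ± 0.50 for Spi-7, 5.72 ± 0.77 for Spi-21 and 5.56 ± 0.47 for Spi-60 (SD), each lower than the one before. Spi-60 arrays lay between 4.81 and 6.13 (median 5.57) and Spi-21 arrays between 4.65 and 6.77 (median 5.59), against 6.72, 7.10, 6.90 and 6.65 in Control. All 8 Spi-60 arrays were below the lowest Control array (no overlap for 12.8% of all probe sets at day 60), while Spi-21 replicate 7, at 6.77, was not. Spi-21 replicates 1 to 4, with the larger Gapdh difference, held 4.65 to 5.44 and replicates 5 to 8 held 5.75 to 6.77. The change was -1.13 ± 0.31 at day 21 (2.19-fold lower, adjusted p = 0.0131) and -1.29 ± 0.31 at day 60 (2.44-fold lower, adjusted p = 0.00461), and was not called at day 2 (-0.52 ± 0.32) or day 7 (-0.66 ± 0.34). With the Gapdh difference as a covariate the day 60 change was -0.66 with an adjusted p of 0.348, and without Spi-21 replicates 1 to 3 the day 21 change was -0.84 with an adjusted p of 0.123, so that neither was then called. At day 21 leaving out Control replicate 2 also ended the call (adjusted p = 0.0527).

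Across the arrays Sclt1 and Scn10a deviated from their group means in opposite directions (r = -0.536, adjusted permutation p = 0.00566; rho = -0.603, 0.00862; r = -0.493 without the 2 arrays farthest from the median of Scn10a). The Sclt1 deviations and the Gapdh difference had r = -0.450, with an adjusted p of 0.337. The probe sets most like Sclt1 were those of Sarnp (r = 0.838), Parp8 (0.830) and Churc1 (0.830). The 250 bases before the start of both genes, shown because they moved against each other, hold none of the 5 motifs.
Sclt1, chr2:126691773-126692022, minus strand: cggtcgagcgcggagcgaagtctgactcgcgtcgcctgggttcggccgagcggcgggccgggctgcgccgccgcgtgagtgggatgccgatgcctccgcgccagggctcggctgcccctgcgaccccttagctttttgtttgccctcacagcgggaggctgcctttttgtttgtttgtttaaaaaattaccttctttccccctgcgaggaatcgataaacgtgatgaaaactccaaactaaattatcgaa
Scn10a, chr8:128340299-128340548, minus strand: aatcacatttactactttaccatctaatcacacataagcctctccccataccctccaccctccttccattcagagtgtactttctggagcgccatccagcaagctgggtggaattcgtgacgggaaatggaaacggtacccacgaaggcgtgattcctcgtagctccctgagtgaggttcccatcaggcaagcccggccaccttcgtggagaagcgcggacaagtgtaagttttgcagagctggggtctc

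The beta subunit Scn3b was measured by 2 probe sets that went the same way. It binds the alpha subunit without a covalent bond and shifts the voltage at which channels inactivate. For 1383435_at, Spi-2 arrays held 8.26 to 10.30 (median 8.93), and Spi-7 arrays 9.74, 9.14, 8.44, 8.61 and 7.47, against 8.02, 7.74, 7.57 and 7.39 in Control. All 6 Spi-2 arrays were above the highest Control array, as were 4 of 5 Spi-7 arrays. The day 2 rise of 1.38 ± 0.42 (2.61-fold, adjusted p = 0.0326) was the 1 member call at that day, when 8.87% of all probe sets were called (3.9% higher), and the day 7 change of 1.00 ± 0.43 (2.00-fold) had an adjusted p of 0.242. At days 21 and 60 the changes were 0.08 ± 0.39 (95% CI -0.72 to 0.89) and -0.07 ± 0.39 (-0.87 to 0.74). Against day 2 the change was -1.30 at day 21 (adjusted p = 0.0143) and -1.45 at day 60 (0.00755), and the first of these was lost without Spi-2 replicate 5 (-1.05, adjusted p = 0.0502). The day 2 call did not hold when any of 6 arrays was left out singly (Control replicates 2, 3 and 4 and Spi-2 replicates 4, 5 and 6), with changes of 1.14 to 1.40 and adjusted p of 0.0553 to 0.0919, nor with the Gapdh covariate (1.06, adjusted p = 0.152).

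For the probe set 1370850_at the Spi-2 arrays held 6.18 to 7.08 (median 6.53) and the Spi-7 arrays 7.03, 6.56, 6.22, 6.65 and 5.96, against 5.92, 6.21, 5.64 and 5.75 in Control. The Spi-2 and Control ranges overlapped by 1 array each. Its change was 0.72 ± 0.26 at day 2 (1.65-fold, adjusted p = 0.0727) and 0.60 ± 0.27 at day 7 (1.52-fold, adjusted p = 0.256), with 0.12 ± 0.24 at day 21 and 0.15 ± 0.24 at day 60. Over the arrays the deviations of both probe sets from their group means had r = 0.811 (adjusted permutation p = 0.000440; rho = 0.798, 0.000880).

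Scn3b went with markers of microglia in these samples. The probe sets most like 1383435_at over the 31 arrays were those of Serpinb1a (r = 0.912), Aif1 (0.886), which is one of the microglia markers, and Hsd17b8 (0.883). Its deviations from the group means and those of the microglia list mean had r = 0.840 (adjusted permutation p = 0.000440; rho = 0.794, 0.00132; r = 0.807 without the 2 farthest arrays), and for 1370850_at the correlation was 0.786. The deviations of 1383435_at also went with the interneuron list mean (r = 0.483, adjusted permutation p = 0.0476; rho = 0.472, 0.109; r = 0.443 without the 2 farthest arrays). Of the 9 microglia markers measured, 4 were higher at day 2 (Csf1r by 2.02, Aif1 by 1.93, C1qc by 1.82 and Cd68 by 1.21), and none was listed at 0 on any array. With the list mean of each array as a covariate, added after the data had been seen, the day 2 change of 1383435_at was -0.07 (adjusted p = 0.944) and that of 1370850_at -0.10 (0.883). Against day 2 the day 21 change of 1383435_at was then -0.50 (0.167). The covariate also made calls for 1383435_at that the main model did not. It was then below Control at day 60 (-0.92, adjusted p = 0.0129) and for the mean of days 21 and 60 (-0.74, 0.0203). Day 60 was also below day 7 (-0.89, 0.0117). At day 60, 3 of the 9 microglia markers were higher than Control. With the same covariate the Scn9a change was 0.99 at day 2 (adjusted p = 0.466), 1.41 at day 7 (0.241) and 1.20 for the mean of both days (0.252), which was then no longer called. It gave Scn9a an adjusted p of 0.0288 in the F-test, above the threshold of 0.02. For Scn9a the within-group correlation with the list was 0.133. The list itself differed between the groups, as given above, so that a covariate of this kind also takes up change between groups.

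**Figure D2:**
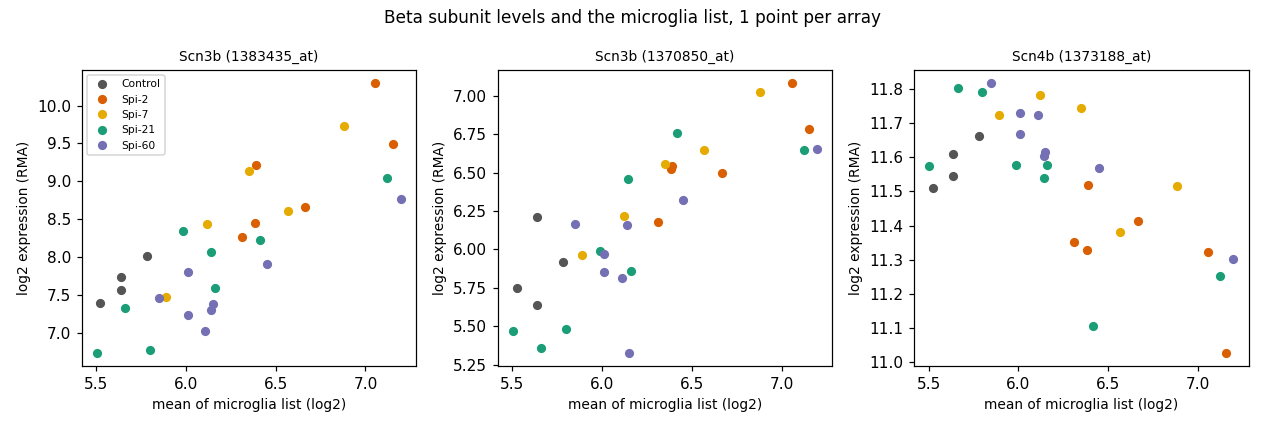
Log2 expression (y axis) of both Scn3b probe sets and of Scn4b against the mean log2 level of 9 microglia markers (x axis), 1 point per array, coloured by group. Scn3b is higher and Scn4b lower on arrays with a higher marker mean.

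Scn4b, a beta subunit joined to the alpha subunit by a disulfide bond and known for the resurgent current of fast-firing neurons, was detected with little spread. The means were 11.58 ± 0.07 in Control, 11.33 ± 0.16 in Spi-2, 11.63 ± 0.17 in Spi-7, 11.53 ± 0.24 in Spi-21 and 11.63 ± 0.15 in Spi-60 (SD). Spi-2 arrays held 11.03 to 11.52 (median 11.34), against 11.66, 11.54, 11.61 and 11.51 in Control, and the groups overlapped by 1 array. The day 2 change was -0.25 ± 0.12 (95% CI -0.50 to -0.01, adjusted p = 0.202) and those at days 7, 21 and 60 were 0.05, -0.05 and 0.05. Day 60 against day 2, a contrast across the 2 studies that was added after the data had been seen, gave 0.30 ± 0.10 (adjusted p = 0.0507). It called 11% of all probe sets. For Scn4b 7 of 11 other settings of the model and 2 of 14 arrays left out singly made the call. Over the settings the change fell as low as 0.16 and the adjusted p rose as high as 0.229. Within the groups Scn4b went against the microglia mean (r = -0.767, adjusted permutation p = 0.000704; rho = -0.713, 0.00132; r = -0.744 without the 2 farthest arrays) and against the Scn3b probe set 1370850_at (r = -0.685, adjusted p = 0.00235; rho = -0.626, 0.00968). With the other Scn3b probe set, 1383435_at, r was -0.532 (adjusted permutation p = 0.067; rho = -0.446, 0.164), which is above 0.05.

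The other 4 members showed no called change in the model of all 31 arrays. Scn8a, the main alpha subunit of adult initial segments and nodes, held group means of 5.50 to 5.62, with changes of 0.03 ± 0.14 and 0.03 ± 0.15 at the early days and 0.11 ± 0.13 and 0.12 ± 0.13 at the late days, and the day 60 interval ran from -0.16 to 0.39. Scn2b, a beta subunit that raises the number of channels at the surface, was 0.30 ± 0.13 above Control at day 2 (adjusted p = 0.149) and 0.12, 0.16 and 0.08 above it at days 7, 21 and 60. Scn4a, the alpha subunit of skeletal muscle, and Scn11a, the alpha subunit behind a persistent current near rest in pain-sensing neurons, stayed within 0.13 of Control in all group means. Scn4a had group means of 5.11 to 5.29 and Scn11a of 6.07 to 6.20. The 25th percentile of the mean levels of all probe sets was 5.34. Scn2b (group means 4.88 to 5.17) and Scn4a lay under it, and Scn8a lay just above it. The Scn10a mean in Control (5.61) and the Scn2a means at days 21 and 60 (5.54 and 5.48) were close to those of Scn8a. Whether probe sets at such levels detected their transcripts was not tested, so that flat values there cannot show steady expression. For Scn4a the late days were above the early days by 0.15 ± 0.06 (adjusted p = 0.0767), which was not called. This contrast was added after the data had been seen, and its sides are the 2 studies. Of 10 other settings 2 called it, median centring (0.18, 0.0362) and array weights (0.18, 0.0142). Of 27 arrays left out singly 1 did so, Spi-7 replicate 5 (0.18, 0.0323). The adjusted p otherwise reached 0.146 over the settings and 0.169 over the arrays left out. Among the members with 250 bases of promoter sequence, Scn8a held 6 GC boxes, Scn2b and Scn4a held 1 Zeb1 E-box each, and the other 6 genes held none of the 5 motifs.

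**Figure D3:**
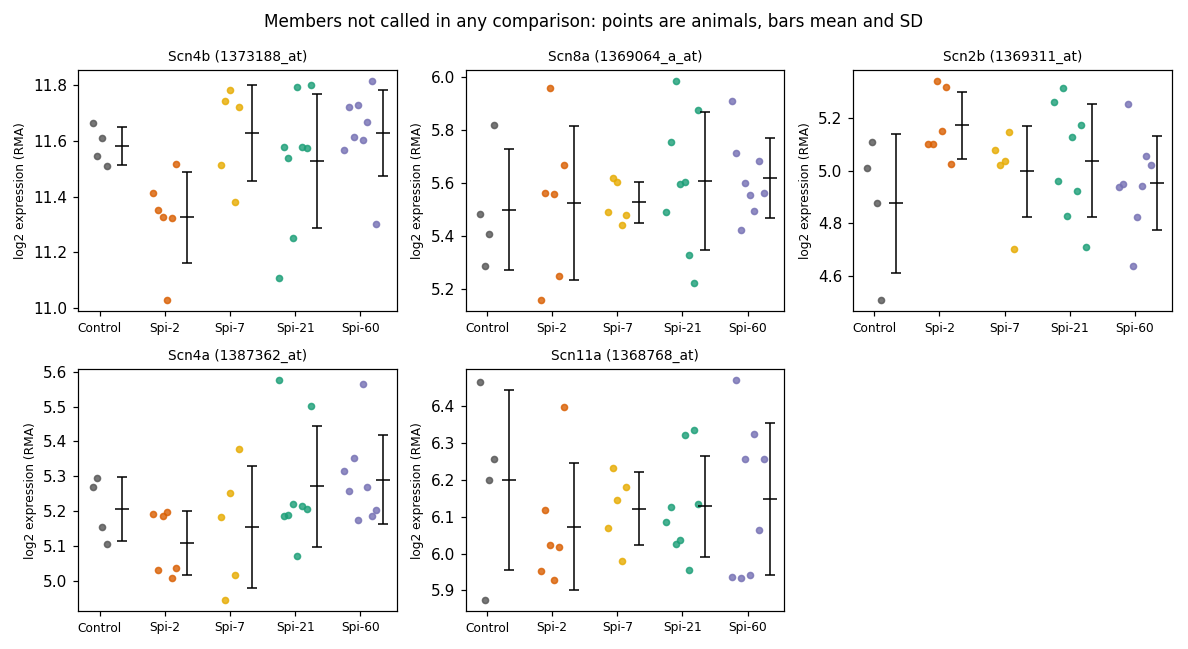
Log2 expression (y axis) of Scn4b, Scn8a, Scn2b, Scn4a and Scn11a on all 31 arrays by group (x axis), 1 point per animal, with mean and SD. The groups overlap in every panel, and in the Scn2b panel the lowest Spi-7 array is 4.70.

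Counted by day against Control, the calls were 1 member at day 2 (higher), none at day 7, and 2 each for day 21 and day 60 (1 higher, 1 lower each time). The shares of all probe sets called at these days were 8.87%, 2.59%, 16.6% (5.94% higher, 10.7% lower) and 17.1% (7.2% higher, 9.89% lower). At day 7 the count of 0 came with 3 members under an unadjusted p of 0.05, and the median change of the members was 0.05, against -0.003 over all probe sets. The share of all probe sets under that unadjusted cutoff was not counted for any comparison. The 4 comparisons share the Control arrays. Day 7 against day 2 gave no call among the members or among all probe sets (0%), with 1 member, Scn4b, under an unadjusted p of 0.05, and day 60 against day 21 gave none among the members, where 0.0697% of all probe sets were called and no member had an unadjusted p under 0.05.

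**Figure D4:**
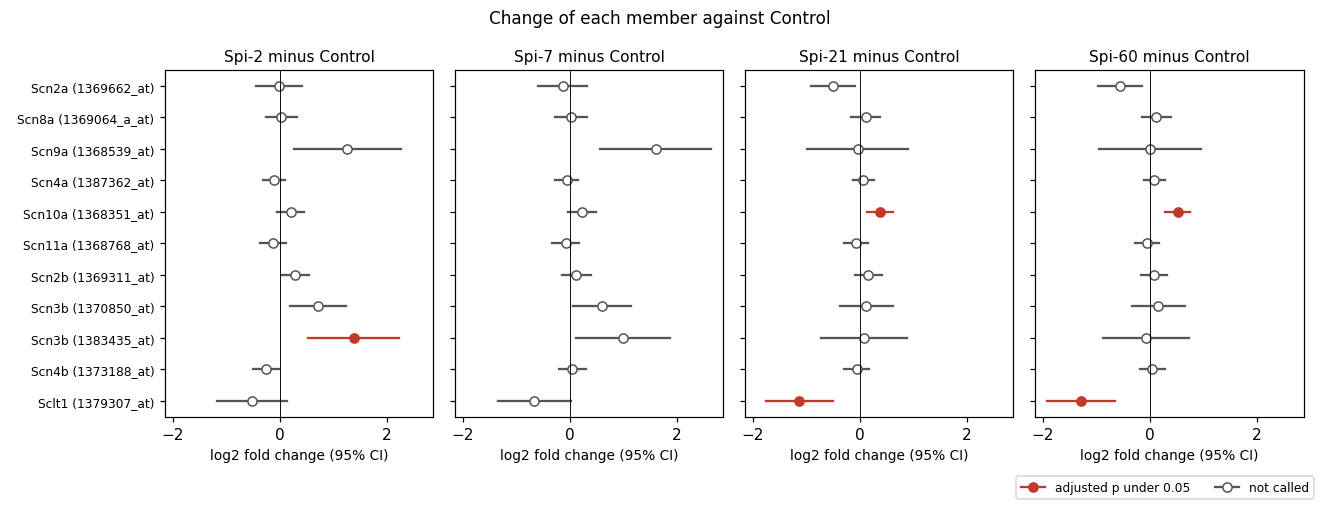
Log2 fold change (x axis) of each of the 11 probe sets (rows) at each day against Control, with 95% confidence intervals, filled red where the adjusted p was under 0.05. Scn3b 1383435_at is the called member at day 2, and Sclt1 (lower) and Scn10a (higher) are those at days 21 and 60.

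The mean of days 21 and 60 set against that of days 2 and 7 called 6 of the 11 probe sets, and 23.3% of all of them (11% higher, 12.2% lower). Lower late were Scn9a (-1.46 ± 0.30, adjusted p = 0.000962), Scn3b 1383435_at (-1.18 ± 0.25, 0.00141), Sclt1 (-0.62 ± 0.20, 0.0232), Scn3b 1370850_at (-0.52 ± 0.16, 0.0157) and Scn2a (-0.46 ± 0.13, 0.0109), and higher late was Scn10a (0.23 ± 0.08, 0.0291). This contrast was added after the data had been seen, and its 2 sides are the 2 studies. The Scn10a call was lost when Spi-2 replicate 1 or 4 or Spi-7 replicate 2, 3 or 4 was left out (0.20 to 0.22), and the Sclt1 call without Spi-7 replicate 4 (-0.56) or without Spi-21 replicates 1 to 3 (-0.48). With the microglia mean as covariate the Scn3b 1370850_at change was -0.25 (adjusted p = 0.117) and the Scn10a change 0.23 (0.0616), so that neither was then called. The Scn9a and Scn3b 1383435_at calls held in each of the 11 other settings and with each of 27 arrays left out.

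Of 33 genes that bind, anchor or regulate sodium channels, 22 were measured, and 4 passed the F-test over the 5 groups, a share close to the 16.2% of all probe sets. Each partner gene, like each marker gene above, was represented by its probe set with the highest mean. Any others of the same gene were not examined. S100a10, the light chain that carries the Scn10a channel to the membrane, was higher 2 days (0.63 ± 0.12, adjusted p = 0.000954), 7 days (0.50 ± 0.12, 0.0243), 21 days (0.33 ± 0.11, 0.0417) and 60 days (0.35 ± 0.11, 0.0284) after the injury. Its Spi-2 arrays held 10.51 to 10.88, above the Control range of 9.68 to 10.28. The day 2 call held in all 12 other settings and with each of 10 arrays left out, while those at days 7, 21 and 60 were ended by 3 of 12, 5 of 11 and 4 of 11 settings, and each of them by leaving out Control replicate 1 (0.37, 0.21 and 0.23). Trim46, which bundles microtubules in the initial segment, was higher at day 2 (0.45 ± 0.13, adjusted p = 0.0248), day 21 (0.36 ± 0.12, 0.0404) and day 60 (0.66 ± 0.12, 0.000553), and at day 7 its change of 0.38 ± 0.13 had an adjusted p of 0.129. The Trim46 calls at days 2 and 21 were ended by 3 of 12 and 5 of 11 settings and by 3 of 10 and 8 of 12 arrays left out singly, and that at day 60 only by the Gapdh covariate (0.37, adjusted p = 0.145), with which its F-test call was also lost (0.111). The F-test values were 0.00333 for S100a10, 0.00350 for Trim46, 0.00502 for Sptbn4 and 0.0138 for Ank3.

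Ank3, ankyrin G, which clusters the channels in the initial segment, was lower at day 60 by 0.83 (SE 0.20, adjusted p = 0.00421): Spi-60 arrays held 5.81 to 6.55, against 6.60 to 7.01 in Control, with no overlap. With the Gapdh covariate that change was -0.23 (adjusted p = 0.581). The F-test call of Ank3 was lost with the Gapdh covariate (0.746), the microglia covariate (0.0305) and further quantile normalization (0.0214), and when any of 8 of the 31 arrays was left out singly. At days 2, 7 and 21 the change was -0.40, -0.51 and -0.27 without a call. Spi-21 replicates 1 to 3 held 5.88 to 6.13 and the other 5 held 6.54 to 7.33, and without those 3 the day 21 change was 0.08 (adjusted p = 0.801). Sptbn4, the spectrin that ties ankyrin G to actin, held 8.44 ± 0.54 in Spi-2 and 8.45 ± 0.98 in Spi-7, and 9.55 ± 0.39 in Spi-21 and 9.43 ± 0.40 in Spi-60, with 8.91 ± 0.32 in Control (SD). No single day was called against Control, where the day 21 change was 0.65 (95% CI 0.01 to 1.28, adjusted p = 0.150). Spi-7 replicate 5 held 10.17 and the other 4 held 7.83 to 8.35, and the day 7 change was -0.45 with it (adjusted p = 0.570) and -0.88 without it (0.0796). The late days were higher than the early days by 1.04 ± 0.20 (adjusted p = 0.000534), a call that held in all 11 other settings and with each of 27 arrays left out. Ank2 and Sptbn1, an ankyrin and a spectrin that did not pass the F-test, were also higher late than early (0.26, adjusted p = 0.00840, and 0.65, 0.0297). In this contrast 7 of the 22 partner genes were called, 4 higher and 3 lower late, against 23.3% of all probe sets. Among the lower were S100a10 (-0.22, adjusted p = 0.0274) and Nedd4l (-0.27, 0.0406), each call ended by 4 of 11 other settings. Of the 22, calls were made for 3 (higher) at day 2, 1 (higher) 7 days and 4 (higher) 21 days after injury, and for 3 higher and 1 lower by day 60, against 8.87%, 2.59%, 16.6% and 17.1% of all probe sets. Beside the genes above these were Nedd4l (day 2, 0.50), Cntnap1 (days 21 and 60, 0.44 and 0.45) and Prrt2 (day 21, 0.27), which, like Ank2 and Sptbn1, are named here after their values were seen. No partner gene was called at day 21 without Spi-21 replicates 1 to 3 (0 of 22), or at day 60 with the Gapdh covariate (0 of 22). The shares of all probe sets called under these settings were not counted, so that these counts cannot be set against them.

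**Figure D5:**
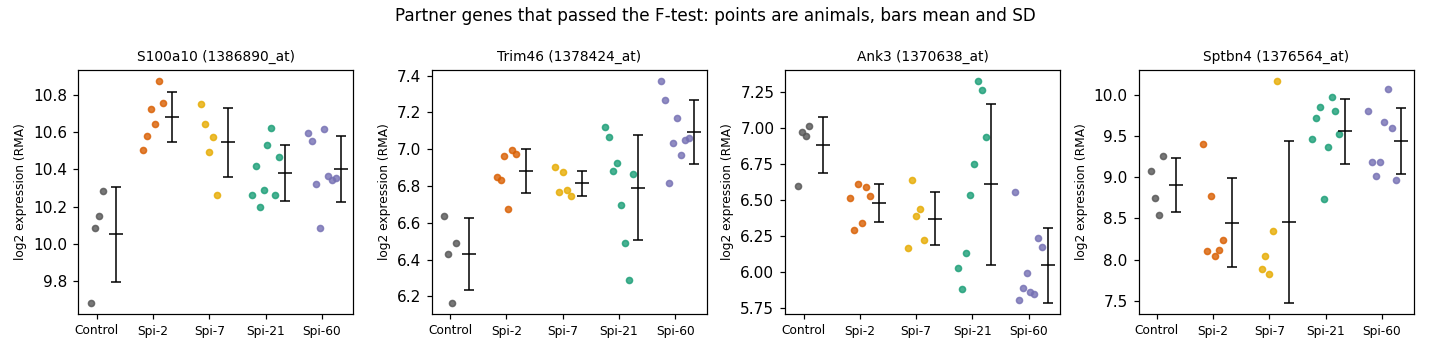
Log2 expression (y axis) of S100a10, Trim46, Ank3 and Sptbn4 on all 31 arrays by group (x axis), 1 point per animal, with mean and SD. S100a10 lies above most Control arrays at each day, and Ank3 is lowest in Spi-60.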

How the data were processed

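Amplified RNA of laser-cut motor neurons was hybridized with 1 array per rat, on 31 arrays. The authors dropped probe sets that Ensembl does not annotate, corrected the background, quantile normalized the probes, computed RMA summaries and normalized these again, and deposited them on a log2 scale for 12919 probe sets. They also applied a further background correction to the summaries. Raw scans were not used and no tool version is given in the sources used here. The 6 control sets were left out. One model of 5 group means was fitted to all 31 arrays over 12913 probe sets in limma 3.58.1 (R 4.3.3), p were adjusted by Benjamini-Hochberg over all of these, and a member was called at an FDR of 0.02 in the F-test or an adjusted p under 0.05 (two-sided) in a contrast. Averages of days and late-against-early contrasts were added after seeing the data. No transform or pseudocount was applied and arrays are separate animals, whose number limits the precision. Correlations of deviations from group means used 100000 permutations within groups. All members, partner genes passing the F-test and the 3 most similar probe sets of each called gene are named. The fit was tested on simulated data, and settings tried include a replicate block, other scalings, array weights, a filter on low levels, covariates and arrays left out. The members, lists and most alternatives were chosen with earlier results of these data known. Python 3.11.15 and matplotlib drew the figures.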

Additional observations from a re-analysis of the deposited data

Results flagged for a closer look

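Of 55 combinations of probe set and group, 3 held an array far from the rest, where chance flags about 1 in 20. Spi-7 replicate 5 was the low array for Scn2a (5.08, with the others at 6.03 to 6.24) and for Scn2b (4.70, with the others at 5.02 to 5.15). Spi-60 replicate 5 was the high array for Scn4a (5.57, the next at 5.35).

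The mean of days 21 and 60 differed from the mean of days 2 and 7 for 6 probe sets in limma. The changes were -0.62 for Sclt1 (adjusted p = 0.0232), 0.23 for Scn10a (0.0291), -0.46 for Scn2a (0.0109), -0.52 for Scn3b 1370850_at (0.0157), -1.18 for Scn3b 1383435_at (0.00141) and -1.46 for Scn9a (0.000962). The sides of this contrast come from different studies.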

How the results depend on the processing

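The F-test count over the 5 groups (4) stayed within 1.5 times under every setting that keeps all groups, and ran from 2 to 5 when single arrays were left out, with 2 without Control replicate 2 or Control replicate 3. With array weights the count was 3 for day 2, 3 for day 7 and 1 for the F-test among days 0, 2 and 7. With the Gapdh covariate these were 0 for day 2, 0 for day 60 and 1 for that F-test. With only the arrays of the groups compared the day 2 count was 3, and with only the arrays of the same study it was 2. Leaving out Spi-21 replicates 1 to 3 gave 2 for day 2, 1 for day 7 and 0 for day 21, and leaving out Spi-7 replicate 5 too gave 3, 1 and 0, and 1 for the F-test on one study. With the microglia mean as covariate the day 2 count was 0, and the Scn3b 1383435_at change turned to -0.069 at day 2 and -0.048 for days 2 and 7. Single arrays left out moved the count to 0 to 2 for day 2, 0 to 1 for day 7, 0 to 2 for day 21, and 0 to 1 for the F-test among days 0, 2 and 7, where the 1 came without Spi-7 replicate 5. The shares of all probe sets called under these settings were not counted, so that the member counts cannot be set against them. The cause of the moved counts was not tested.

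Equal replicate numbers do not pair the animals (mean r of same-numbered arrays -0.0276, and 3 of 31 arrays closest to their own number). With the replicate block the counts were 4 over all groups, 1 for day 2, 0 for day 7, 2 for day 21, 2 for day 60, 0 for day 7 against day 2, 0 for day 60 against day 21 and 0 among days 0, 2 and 7, as without it, and the calls of Scn9a at days 2 and 7 (adjusted p = 0.0549) and of Scn2a at days 21 and 60 (0.0519) were lost. Among the partner genes it ended the calls of S100a10 at days 7, 21 and 60, of Nedd4l at day 2 and of Prrt2 at day 21. Further quantile normalization moved the share of higher calls over all probe sets to 45.6% against 35.3% at day 7, 52.1% against 35.7% at day 21, 55.1% against 42.1% at day 60, 53.6% against 39.4% for days 21 and 60, 58.6% against 47.4% for late against early and 14.3% against 33.3% for day 60 against day 21.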
